A study of Mus musculus with 19 samples.

Results

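AP-1 factors are dimers of basic leucine zipper proteins, and BATF3, a factor in the development of dendritic cells of type 1 (DC1), is one of them. The genes described here are 9 other members of the family: the FOS genes Fos, Fosb, Fosl1 and Fosl2, the JUN genes Jun, Junb and Jund, the ATF gene Atf3 and the small MAF gene Maff. They were taken by name, and each gene was read from its brightest probe set with a single gene symbol. The skin-draining lymph node (SDLN) table held all 9 among its 19938 genes. The spleen table held 8 among 22180, because Fosl1 was covered there only by a probe set shared with another gene. All 9 and all 8 passed the filter on dim genes.

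BATF proteins lack a transactivation domain and pair with JUN proteins. In dendritic cells and lymphocytes, BATF-JUN pairs bind DNA together with IRF4 or IRF8 at composite elements. FOS proteins also need a JUN partner, so FOS, BATF, ATF3 and other zipper proteins share the same JUN pool. Fos, Fosb, Jun, Junb and Atf3 are immediate early genes: they are transcribed within minutes of growth factor, stress or Toll-like receptor signals, and also while a tissue is digested to single cells. ATF3 and the small MAF proteins, which lack a transactivation domain, are best known as repressors when they bind without an activating partner.

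The study measured gene expression on Affymetrix arrays in DC1 sorted from C57Bl/6j mice, wild type (WT) or without Batf3 (Batf3-/-). Irf8VENUS is a fluorescent reporter of Irf8. The spleen groups, from female mice, were WT Irf8VENUS- (2 arrays), WT Irf8VENUS+ (3) and Batf3-/- Irf8VENUS+ (3). The SDLN groups were all Irf8VENUS+: resident WT (3), migratory WT (2), resident Batf3-/- (3) and migratory Batf3-/- (3). Resident DC1 were gated as MHCIIint CD11chi and migratory DC1, which arrive from the skin, as MHCIIhi CD11cint. Both tissues were digested with Collagenase B and DNAse 1, so every group passed through enzymatic dissociation. The spleen sort used CD24 and XCR1, except for replicate 3 of both Irf8VENUS+ groups, which used CD24 without XCR1. The spleen gate is also described as CD172a+ and the SDLN gate as CD172-, and Sirpa, which encodes CD172a, read 5.35 to 5.84 on the spleen arrays. The labels give no age, and they do not say whether the Batf3 deletion was limited to a cell type or whether mice were pooled. The p-values therefore measure the spread between arrays, which may in part be technical. Levels are log2 array intensities, and no level is set against that of another gene or of the other table.

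The proximal promoters of Fos, Jun and Atf3 are shown because the search found letters of a response element in them and because these genes fell between resident and migratory WT DC1, as described below. Fosb fell with them, and its window, which reaches into the annotated gene, held none of the motifs searched. Each line gives the 250 bases before the RefSeq gene start, 5′ to 3′ on the strand of the gene, in build GRCm38.p6. The Fos window is chr12:85473640-85473889 on the plus strand, the Jun window chr4:95052223-95052472 on the minus strand and the Atf3 window chr1:191183334-191183583 on the minus strand. Capitals mark cAMP response element (CRE) letters found by the search, the sites of ATF, CREB and some JUN dimers.
Fos: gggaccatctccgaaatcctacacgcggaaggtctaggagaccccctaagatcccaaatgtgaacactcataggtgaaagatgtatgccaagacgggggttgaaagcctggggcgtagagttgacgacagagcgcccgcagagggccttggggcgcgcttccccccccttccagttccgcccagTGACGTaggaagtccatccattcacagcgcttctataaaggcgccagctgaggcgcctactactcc
Jun: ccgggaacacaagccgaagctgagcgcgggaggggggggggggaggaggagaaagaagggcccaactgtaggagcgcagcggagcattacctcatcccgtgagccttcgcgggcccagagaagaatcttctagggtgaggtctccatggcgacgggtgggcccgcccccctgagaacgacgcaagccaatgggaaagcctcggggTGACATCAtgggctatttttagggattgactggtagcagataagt
Atf3: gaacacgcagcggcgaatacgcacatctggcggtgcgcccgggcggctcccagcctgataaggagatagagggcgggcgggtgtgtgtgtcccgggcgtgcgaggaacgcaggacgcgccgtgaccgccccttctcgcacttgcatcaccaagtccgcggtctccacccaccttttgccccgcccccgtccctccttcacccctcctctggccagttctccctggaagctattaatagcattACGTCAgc
The Fos window held TGACGT, 66 to 61 bases before the start. The Jun window held the CRE variant TGACATCA, 45 to 38 bases before the start, and the Atf3 window held TGACGT on the opposite strand, 8 to 3 bases before the start. Of 32851 windows of the same length, 6.47% held TGACGT on either strand and 2.93% held TGACATCA. The full element TGACGTCA, which contains TGACGT, was in 1.55% of windows. Maff had 3 windows, 1 with TGACGTCA and 1 with TGACATCA. The AP-1 site TGANTCA was in 6.75% of windows and the CArG box, the SRF site, in 1.47%, and neither was in a member's window. Bases further upstream were not searched, so a site there would have been missed. The promoter table had rows for 8 members, all but Fosl1, and the windows of Fosb, Fosl2, Junb and Jund held no match. These matches describe the letters only.

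Atf3 and Batf3 are neighbours in the genome. In GRCm38.p6, Batf3 lies at chr1:191098414-191108943 and Atf3 at chr1:191170296-191183333, with 61.4 kb between the annotated genes. The other members lie elsewhere: Fos at chr12:85473890-85477274, Fosb at chr7:19302696-19310118, Fosl1 at chr19:5447698-5455938, Fosl2 at chr5:32136472-32157840, Jun at chr4:95049036-95052222, Junb at chr8:84976909-84978748, Jund at chr8:70697739-70700616 and Maff at chr15:79346621-79359078. The exons that the probe sets cover were not analysed here.

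Batf3 itself separated the genotypes on every array, with log2 levels of 5.29 to 7.08 in spleen Batf3-/- and 9.42 to 10.41 in spleen WT, and of 5.50 to 6.17 in SDLN Batf3-/- and 8.15 to 9.23 in SDLN WT. Of the cDC1 markers, Xcr1 read 8.99 to 11.43 in spleen, 9.53 to 11.34 in resident SDLN DC1, 7.85 and 8.07 in migratory WT and 5.83 to 6.46 in migratory Batf3-/- DC1. All 9 cDC1 markers were lower in migratory than in resident DC1 in both genotypes. In migratory Batf3-/- DC1 Tlr3 (4.89 to 5.78) approached the filter level of 4.82. Between the migratory genotypes, 2 of the 9 were called higher and 4 lower in Batf3-/- DC1, where 7.13% and 2.28% of all genes were. The log2 of the summed intensity of the 9 was 11.85 to 12.59 in migratory Batf3-/- and 11.30 and 11.80 in migratory WT DC1. The SD of all log2 values on an array was 1.96 and 2.03 in migratory WT, 2.07 to 2.16 in migratory Batf3-/- and 2.16 to 2.23 in resident DC1. In spleen, replicate 1 of WT Irf8VENUS+ correlated least with its group, with a mean r of 0.93 against 0.939 and 0.946. For some members whose call or difference changed when 1 of these arrays was left out, the value without it stands beside the result. Not every such value is given. Leaving out a migratory WT array leaves 1 array in that group, which is then assumed to vary like the other groups.

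Fos, Fosb, Jun and Atf3 were lower in migratory than in resident WT DC1, and Fosl2, Junb, Jund, Maff and Fosl1 did not pass the test. This comparison asks how DC1 that came from the skin differ from those that live in the node. Thus 4 of 9 members were called lower and none higher, where 33.2% of all 11931 genes tested were called lower and 16% higher. The members' median difference was -0.80 and that of all genes -0.16. Arrays of the groups did not overlap for 7 members, 6 below and Fosl1 above, where 70.3% of all genes did not overlap. A lower value in sorted bulk cells cannot tell apart fewer cells with the transcript and less of it per cell.

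Among the FOS genes, Fosb read 11.61, 11.95 and 11.87 on the resident WT arrays and 9.52 and 9.95 on the migratory WT arrays. The groups lay well apart, and Fosb fell by 2.07 ± 0.33 (SE) on the log2 scale (limma, adjusted p = 0.000297). Fos, the founding member of the family, read 8.93, 9.32 and 9.46 in resident and 8.19 and 7.74 in migratory WT DC1. Every migratory array was below every resident one, and Fos fell by 1.27 ± 0.32 (adjusted p = 0.00623). Fosl2, which encodes FRA-2, read 8.23, 7.54 and 7.04 against 7.16 and 6.46. These values overlapped, and its difference of -0.80 ± 0.47 did not pass the test (adjusted p = 0.181). Within the 2 replicate numbers that both groups share, which also share a code in the array titles, Fosl2 differed by -1.07 and -1.09. Fosl1, which encodes FRA-1, stayed near the filter level, at 4.54 to 4.73 in resident and 4.79 and 4.84 in migratory DC1 (0.17 ± 0.15, adjusted p = 0.365).

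Among the JUN genes, Jun had the largest difference in means of the 9 members between migratory and resident WT DC1. It read 9.44, 10.85 and 10.88 in resident and 7.40 and 8.50 in migratory DC1. It varied within both groups, but the highest migratory array stayed below the lowest resident one, and Jun fell by 2.44 ± 0.42 (limma, adjusted p = 0.00056). Junb read 8.27, 8.58 and 8.55 in resident and 8.36 and 8.04 in migratory DC1, with overlapping arrays and a difference of -0.27 ± 0.33 (adjusted p = 0.529). Jund, the JUN gene with the steadiest expression in most cells, read 6.80, 6.68 and 6.70 against 6.37 and 6.41. The arrays did not overlap, but the difference of -0.34 ± 0.17 did not pass the test (adjusted p = 0.108).

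Atf3 read 8.77, 9.14 and 9.61 in resident WT and 7.88 and 8.0 in migratory WT DC1. Its resident arrays spread over most of a log2 unit and its migratory ones lay close together below them, and Atf3 fell by 1.23 ± 0.26 (limma, adjusted p = 0.00199). Maff read 6.93, 6.88 and 6.30 in resident and 6.03 and 6.08 in migratory WT DC1. Its groups did not overlap, and its difference of -0.65 ± 0.27 did not pass the test (adjusted p = 0.063), with -0.91 and -0.80 within the shared numbers. With the replicate number as a block, which the main fit did not use, 6 members were called in place of 4. Fosl2 (-1.15 ± 0.18, adjusted p = 0.000344) and Maff (-0.85 ± 0.16, adjusted p = 0.00107) were added. With the SD of each array's values as a term in the fit, none of the members was called. In that fit Fosb was 0.16 ± 0.48 higher, Fos 0.32 lower with an SE of 0.76 and Jun 1.01 lower with an SE of 1.0, so the differences could not be separated from the narrower spread of the migratory WT arrays. Without migratory WT replicate 2, Fos fell by 1.05 ± 0.41 and was not called (adjusted p = 0.0581). Without migratory WT replicate 1 or 2, Fosb differed by -1.86 ± 0.42 or -2.29 ± 0.42 and Jun by -1.89 ± 0.49 or -2.99 ± 0.49, and both stayed called.

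**Figure D1:**
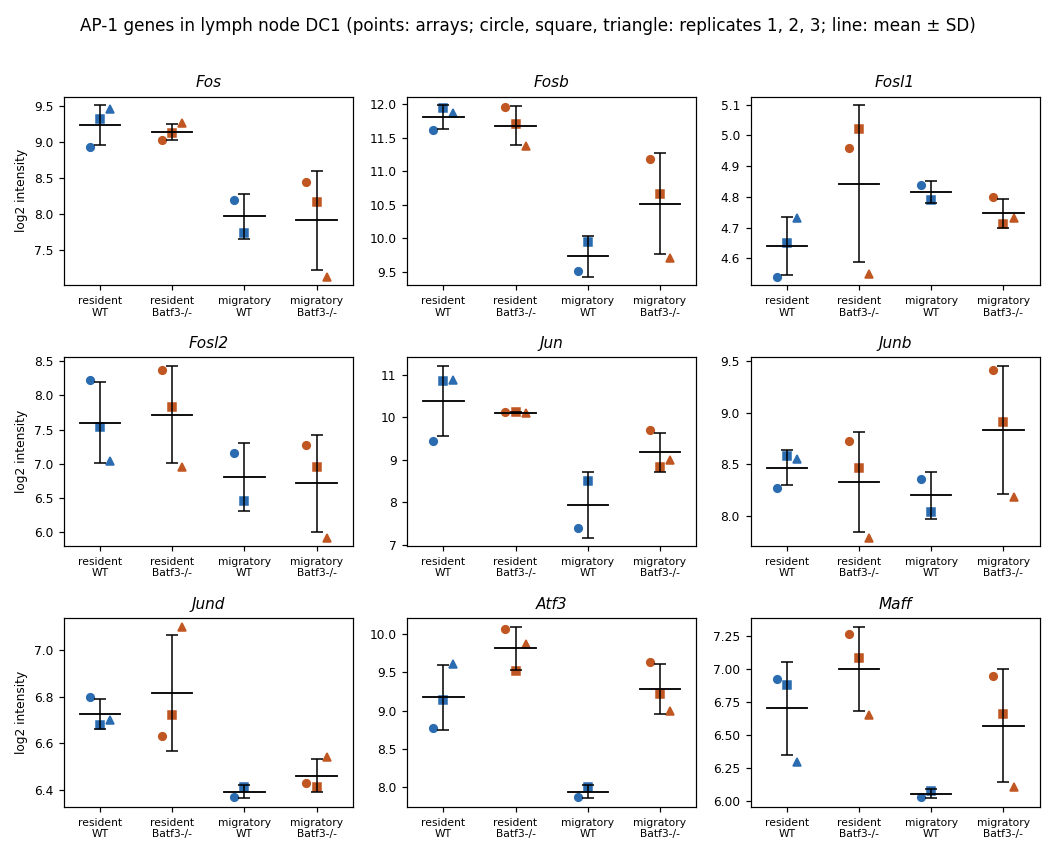
Log2 intensity of each AP-1 gene on the 11 lymph node arrays, 1 panel per gene with its own vertical axis. Points are arrays (circle, square and triangle for replicates 1, 2 and 3), blue is WT, orange is Batf3-/-, and lines show the mean with its SD. Fos and Fosb are lower in both migratory groups, the 2 migratory WT arrays of Atf3 (7.88 and 8.0) lie below the 9 others, and replicate 3 of migratory Batf3-/- DC1 is the lowest of its group for Fos, Fosb, Fosl2, Junb, Atf3 and Maff.

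In Batf3-/- DC1, Fos and Fosb were again lower in migratory than in resident cells, and the other 7 members did not pass the test. This was 2 of 9 called lower and none higher, where 22.6% of all genes were called lower and 14.1% higher, with a median of -0.53 against -0.02 for all genes. Arrays did not overlap for 4 members (46.8% of all genes). Fos read 9.03, 9.12 and 9.26 in resident and 8.44, 8.16 and 7.13 in migratory Batf3-/- DC1, and fell by 1.22 ± 0.29 (limma, adjusted p = 0.00499). Fosb read 11.96, 11.70 and 11.38 against 11.19, 10.66 and 9.71, and fell by 1.16 ± 0.29 (adjusted p = 0.00745). For both genes all migratory arrays lay below all resident ones, and migratory replicate 3 was the lowest.

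Jun read 10.12, 10.12 and 10.10 in resident and 9.70, 8.84 and 9.0 in migratory Batf3-/- DC1. Its groups did not overlap either, but the difference of -0.94 ± 0.38 did not pass the test (limma, adjusted p = 0.071). Fosl2 (8.37, 7.83 and 6.96 against 7.28, 6.95 and 5.92) differed by -1.0 ± 0.42 (adjusted p = 0.0837) and Jund by -0.36 ± 0.15 (adjusted p = 0.08). Atf3 read 10.06, 9.51 and 9.86 against 9.63, 9.21 and 9.0, a difference of -0.53 ± 0.23 (adjusted p = 0.0927) with overlapping arrays. Junb went the other way in its mean, with 8.73, 8.46 and 7.79 in resident and 9.41, 8.91 and 8.18 in migratory DC1 (0.51 ± 0.30, adjusted p = 0.211). Maff (-0.43 ± 0.24, adjusted p = 0.189) and Fosl1 (-0.10 ± 0.14, adjusted p = 0.609) did not pass.

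SDLN arrays with the same replicate number have the same code in their titles. Deviations of Batf3-/- resident and migratory arrays from their group means correlated at 0.416, 0.210 and 0.479 within numbers 1, 2 and 3. Between different numbers the correlations ran from -0.451 to 0.218, so number 2 did not stand apart. Within each number Fosl2 differed by -1.09, -0.88 and -1.03, a far narrower range than its levels, and Maff by -0.32, -0.43 and -0.54. With the number as a replicate block, 4 members were called lower instead of 2: Fos, Fosb, Fosl2 (-1.0 ± 0.15, adjusted p = 0.000386) and Maff (-0.43 ± 0.14, adjusted p = 0.0271). Fos differed by -0.58, -0.96 and -2.13 within the numbers and Junb by 0.68, 0.45 and 0.39. Without migratory Batf3-/- replicate 1, 5 members were called lower, Atf3, Fos, Fosb, Fosl2 and Jun. With the array SD as a term, Jund was called lower and Junb higher, in place of Fos and Fosb. Junb was also called higher without migratory Batf3-/- replicate 3, beside Fos and Fosb.

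Among migratory DC1, Atf3 was higher without Batf3, the only member called in the comparison of Batf3-/- with WT. It read 9.63, 9.21 and 9.0 on the Batf3-/- arrays and 7.88 and 8.0 on the WT arrays, so every Batf3-/- array lay above every WT array. The difference was 1.34 ± 0.26 on the log2 scale (limma, adjusted p = 0.0135), and within the 2 shared replicate numbers it was 1.74 and 1.21. This was 1 of 9 members called higher and none lower, where 7.13% of all genes were called higher and 2.28% lower. The members' median difference was 0.52 and that of all genes 0.10. Atf3 was not called with the array SD as a term (1.07 ± 0.43, adjusted p = 0.306), in a fit of the migratory arrays alone, without migratory WT replicate 1 (1.28 ± 0.34, adjusted p = 0.0968) or without migratory Batf3-/- replicate 1 (1.17 ± 0.27, adjusted p = 0.0517).

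Arrays of migratory Batf3-/- DC1 also lay above all migratory WT arrays for Jun and Maff, so 3 of 9 members stood apart upwards, where 24.2% of all genes did. Jun read 9.70, 8.84 and 9.0 against 7.40 and 8.50 (1.23 ± 0.42, adjusted p = 0.0805). Within the shared numbers Jun differed by 2.29 and 0.33, and without migratory WT replicate 2 it was called (1.77 ± 0.49, adjusted p = 0.0434), while without replicate 1 the difference was 0.68 ± 0.49. Maff read 6.95, 6.66 and 6.11 against 6.03 and 6.08 (0.52 ± 0.27, adjusted p = 0.219). With all arrays neither passed limma's test. Fosb read 11.19, 10.66 and 9.71 against 9.52 and 9.95 (0.78 ± 0.33, adjusted p = 0.133) and Junb 9.41, 8.91 and 8.18 against 8.36 and 8.04 (0.64 ± 0.33, adjusted p = 0.222). For Fosb and Junb, replicate 3 of the Batf3-/- group lay within the WT range while the other arrays lay above it. Without that replicate, 4 members were called higher, Atf3 (1.48 ± 0.26, adjusted p = 0.00241), Fosb, Junb and Maff. With the replicate block 3 were called: Atf3, Fosb (0.96 ± 0.29, adjusted p = 0.0398) and Maff (0.72 ± 0.16, adjusted p = 0.0122). Fos (-0.05 ± 0.32), Fosl1 (-0.07 ± 0.15), Fosl2 (-0.09 ± 0.47) and Jund (0.07 ± 0.17) had small differences beside their errors.

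Among resident DC1 no member was called between Batf3-/- and WT, where 1.84% of all genes were, and the arrays of all 9 members overlapped, where those of 19.8% of all genes did not. Of the 9, 1 reached an unadjusted p under 0.05, a share close to the 9.61% of all genes, and it was Atf3, with 10.06, 9.51 and 9.86 in Batf3-/- against 8.77, 9.14 and 9.61 in WT (0.64 ± 0.23, limma, adjusted p = 0.297). Within the replicate numbers Atf3 differed by 1.29, 0.38 and 0.25. Jun differed by -0.28 ± 0.38 and was uneven, with 0.68, -0.73 and -0.78 within the numbers, where resident WT replicate 1 read 9.44 and the other resident WT arrays 10.85 and 10.88. That array also stood apart in markers of the other conventional subset, cDC2, whose log2 summed intensity was 10.39 on it and 8.32 and 8.58 on the others, and the part of such cells in its Jun level was not tested. Fos read 9.03 to 9.26 in Batf3-/- and 8.93 to 9.46 in WT (-0.10 ± 0.29), and Fosb 11.38 to 11.96 and 11.61 to 11.95 (-0.13 ± 0.29). Maff differed by 0.30 ± 0.24, Junb by -0.14 ± 0.30, Fosl2 by 0.11 ± 0.42 and Jund by 0.09 ± 0.15.

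Whether the difference between genotypes itself differed between migratory and resident DC1 was tested as an interaction. No member passed, where 1.24% of all genes did, and Jun alone had an unadjusted p under 0.05, where 19.2% of all genes did. The estimates were 1.5 ± 0.56 for Jun (limma, adjusted p = 0.182), 0.91 ± 0.44 for Fosb (adjusted p = 0.282), 0.78 ± 0.45 for Junb (adjusted p = 0.361) and 0.70 ± 0.35 for Atf3 (adjusted p = 0.291). Thus Atf3, although called only among migratory cells, was not shown to respond differently in the 2 populations. Without migratory Batf3-/- replicate 3, Fosb passed the interaction test.

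**Figure D2:**
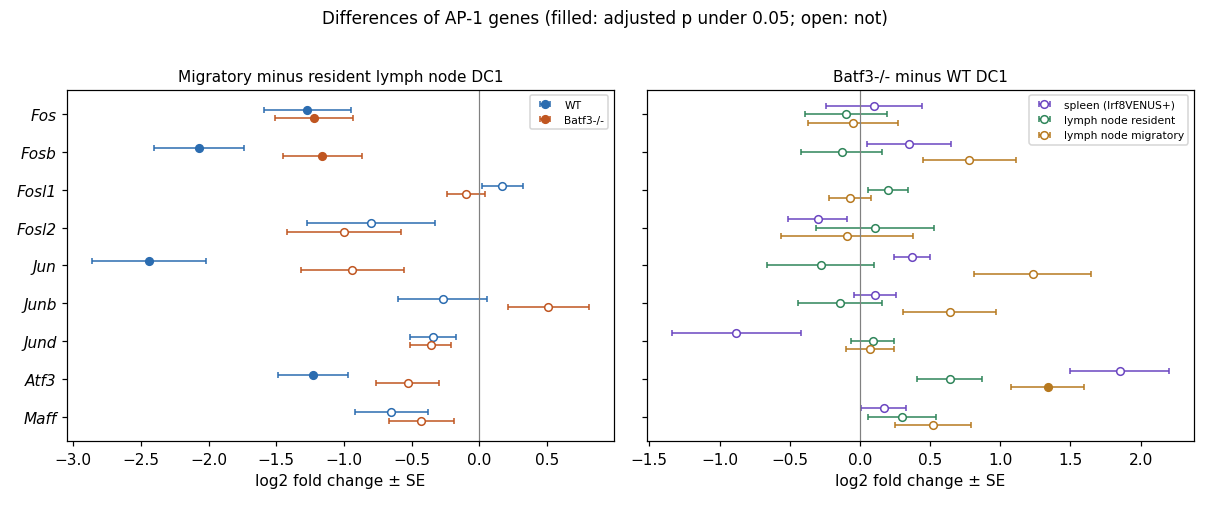
Log2 fold change with its SE for each AP-1 gene from limma, with migratory minus resident DC1 at left (WT blue, Batf3-/- orange) and Batf3-/- minus WT DC1 at right (spleen, resident and migratory lymph node). Filled points have an adjusted p under 0.05 and open points do not. In the left panel 4 WT points and 2 Batf3-/- points are filled, and in the right panel the Atf3 points all lie above 0, at 1.85, 0.64 and 1.34, and the migratory one is filled.

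In spleen no member was called between Batf3-/- and WT Irf8VENUS+ DC1, where 0.738% of 12875 genes were. Atf3 came nearest, and it and Jun were the 2 of 8 members with an unadjusted p under 0.05, where 10.4% of all genes had one. Atf3 read 10.82, 11.04 and 10.92 in Batf3-/- and 8.15, 9.46 and 9.63 in WT Irf8VENUS+ DC1. All Batf3-/- arrays lay more than a log2 unit above all WT ones, and the difference was 1.85 ± 0.35 (limma, adjusted p = 0.0656). Replicates 1 and 2, sorted with XCR1, gave 2.12, and the pair sorted without it gave 1.30. Without WT Irf8VENUS+ replicate 1, the array with the lowest Atf3, the difference was smaller and was called (1.40 ± 0.18, adjusted p = 0.0137). Called values were also given by array weights (1.56 ± 0.25, adjusted p = 0.0209), the array SD as a term, a stricter filter and the replicate block in place of the sort gate. Over all 19 alternatives the adjusted p ran from 0.0137 to 0.304.

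The WT Irf8VENUS- arrays did not share the low Atf3 of the WT Irf8VENUS+ arrays: they read 10.21 and 10.81. Against them, Batf3-/- DC1 differed in Atf3 by 0.28 ± 0.41 (limma, adjusted p = 0.937), although all 3 Batf3-/- arrays were the higher ones. WT Irf8VENUS+ DC1 differed from WT Irf8VENUS- DC1 by -1.57 ± 0.41 (adjusted p = 0.456). The 2 comparisons with the WT Irf8VENUS+ group share its 3 arrays. No member was called in either comparison with the Irf8VENUS- group, where 0.559% of all genes were called for Batf3-/- and 0.0233% for WT Irf8VENUS+ DC1. By limma's unadjusted p under 0.05 the members were 0 and 2 (Jun and Atf3) of 8, where 9.25% and 7.91% of all genes were.

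Fos and Fosb varied in spleen mostly within the WT Irf8VENUS+ group, and Jund varied both there (SD 0.85) and in Batf3-/- DC1 (SD 0.61). Fos read 7.26 on replicate 1 of that group and 8.58 on both others, against 8.41, 8.23 and 8.07 in Batf3-/- and 8.51 and 8.59 in WT Irf8VENUS- DC1. Fosb was likewise low on that array, at 8.38, with 9.62 and 9.27 on the others, 9.42, 9.56 and 9.34 in Batf3-/- and 9.54 and 9.96 in WT Irf8VENUS- DC1. The same array was the highest of all 8 for Jund, at 10.47, against 8.97 and 9.05 for its group, 8.02, 8.57 and 9.24 in Batf3-/- and 8.17 and 8.65 in WT Irf8VENUS- DC1. A second Jund probe set read 6.72 to 7.53 over the 8 arrays, also highest on that array. For Fosb, the Batf3-/- minus WT Irf8VENUS+ difference was 0.35 ± 0.30 with that array and -0.04 without it, and for Jund it was -0.88 ± 0.46 (limma, adjusted p = 0.566) with that array and -0.30 ± 0.26 (adjusted p = 0.773) without it.

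Jun read 10, 10.15 and 9.46 in Batf3-/-, 9.72, 9.82 and 8.97 in WT Irf8VENUS+ and 10 and 10.24 in WT Irf8VENUS- DC1. Replicate 3, sorted without XCR1, was the lowest of both Irf8VENUS+ groups, and Jun differed between them by 0.37 ± 0.13 (limma, adjusted p = 0.374), with 0.31 and 0.49 within the gates. Junb showed the same low replicate 3, with 8.23, 8.44 and 8.14 in Batf3-/- against 8.31, 8.24 and 7.92 in WT Irf8VENUS+ (0.11 ± 0.15), and read 8.50 and 8.74 in WT Irf8VENUS- DC1. Maff read 6.78, 6.79 and 6.78 in Batf3-/- against 6.37, 6.75 and 6.74 (0.17 ± 0.16), so with Atf3 it was 1 of 2 members whose Batf3-/- arrays all lay above WT Irf8VENUS+, where 6.15% of all genes did. Fosl2 read 5.77, 5.97 and 6.55 against 6.05, 6.46 and 6.69 (-0.30 ± 0.21).

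**Figure D3:**
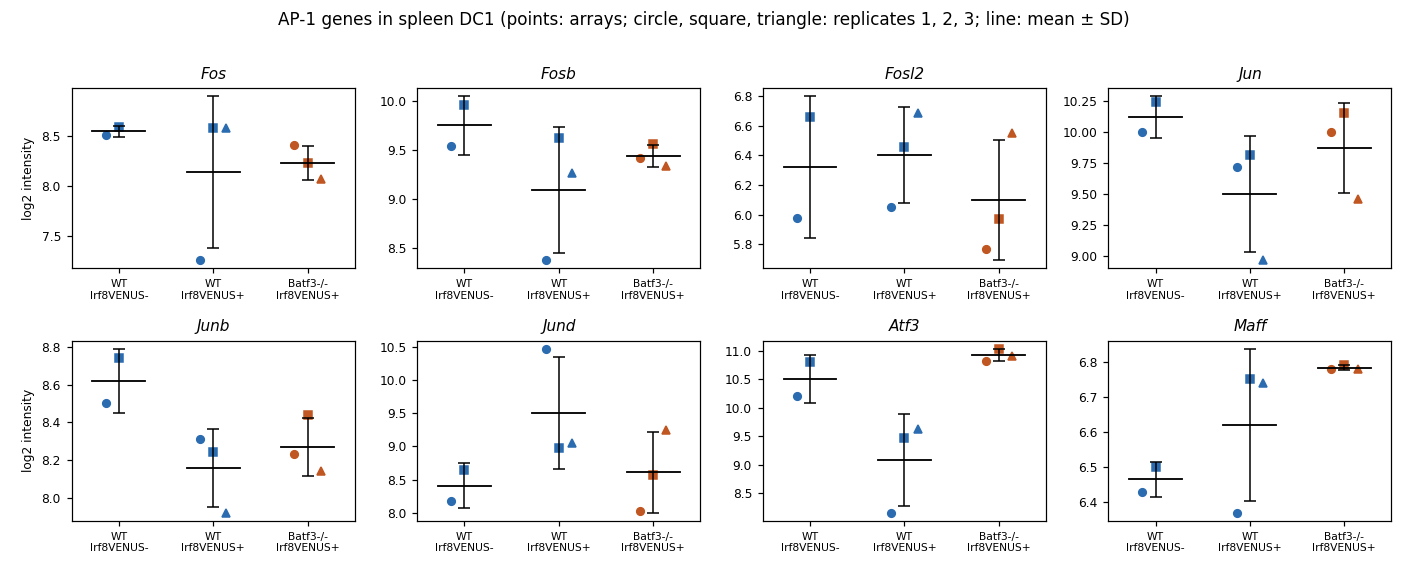
Log2 intensity of the 8 AP-1 genes on the 8 spleen arrays, 1 panel per gene with its own vertical axis. Points are arrays (circle, square and triangle for replicates 1, 2 and 3), and lines show the mean with its SD. For Atf3 the 3 Batf3-/- arrays (10.82 to 11.04) lie above the 3 WT Irf8VENUS+ arrays (8.15 to 9.63) and close to the WT Irf8VENUS- arrays. Replicate 1 of WT Irf8VENUS+ is the lowest array for Fos, Fosb and Atf3 and the highest for Jund.

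The order of the group means in SDLN differed between members. Fos, Fosb and Jun had both resident groups above both migratory groups, and their resident WT and resident Batf3-/- means differed by less than the resident WT SD. For Jun that SD was 0.82, and the SD of the resident Batf3-/- group was 0.01. Fosl2, Jund and Maff had the same separation of means, and their resident Batf3-/- group was highest. Atf3 was ordered resident Batf3-/- (9.81 ± 0.27, SD), migratory Batf3-/- (9.28 ± 0.32), resident WT (9.17 ± 0.42) and migratory WT (7.94 ± 0.08). Of these neighbours, migratory Batf3-/- and resident WT overlapped, as did the first 2, and the step down to migratory WT was free of overlap. Junb had its highest mean in migratory Batf3-/- DC1 (8.83 ± 0.62), with all neighbouring groups overlapping. The Fosl1 means lay close together, from 4.64 to 4.84.

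Across the 11 SDLN arrays, Fosb went with Fos (Pearson r = 0.89) and with Jun (r = 0.90), Maff with Fosl2 (r = 0.82), and Junb had values from -0.49 with Jund to 0.44 with Maff. Across the 8 spleen arrays, Fos went with Fosb (r = 0.89) and Jun with Junb (r = 0.88), and Jund ran against both Fos (r = -0.81) and Fosb (r = -0.79). These arrays share their group structure and single arrays that stand apart, so the values are descriptions. Over all genes tested in SDLN, the genes most like Fos were Irf2bp2 (r = 0.976), Rgs2 (0.973) and Nif3l1 (0.971), and those most like Fosb were Atf6b (0.987), Hcfc1 (0.985) and Ric8a (0.985). Those most like Jun were Bloc1s2 (0.979), Nktr (0.971) and Hltf (0.97). Atf3 had lower best matches, Lacc1 (0.953), Cyb561a3 (0.94) and Prkcd (0.929). Fosl2 was most like Cd14 (0.948), Maff like Csrnp1 (0.95) and Junb like Sowahc (0.939). In spleen the gene most like Fos was H2-Eb1 (0.991) and that most like Atf3 was Ccser2 (0.979).

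Immediate early genes outside AP-1 were counted beside the members because the same signals induce them. Of 22 tested, 12 fell and 2 rose from resident to migratory WT DC1, where 33.2% of all genes fell and 16% rose. The median was -1.05 against -0.16 for all genes. Ier3 (-1.46 ± 0.17), Ier2 (-1.86 ± 0.22) and Egr3 (-2.15 ± 0.21), the last a zinc finger factor, were those with the smallest adjusted p (3.54e-05, 3.92e-05 and 8.07e-06, limma). In Batf3-/- DC1 11 fell and 3 rose, where 22.6% of all genes fell and 14.1% rose. The median was -0.51 against -0.02, and Ier3 (-1.91 ± 0.15), Egr2 (-3.70 ± 0.39) and Egr3 (-1.69 ± 0.18) led. Between migratory Batf3-/- and WT DC1, 3 rose and none fell, where 7.13% of all genes rose and 2.28% fell. They were Klf6 (0.76 ± 0.20), Ier2 (0.85 ± 0.22) and Klf2 (0.79 ± 0.21). The median of the 22 was 0.65 against 0.10, and 14 of 22 had an unadjusted p under 0.05 by limma, where 30% of all genes did. Among resident DC1 only Socs3, an inhibitor of cytokine signalling, was called (0.99 ± 0.20), where 1.84% of all genes were. In spleen Batf3-/- against WT Irf8VENUS+ DC1 only Klf4 was (1.39 ± 0.22), where 0.738% of all genes were. By unadjusted p these counts were 1 of 22 (9.61% of all genes) and 5 of 22 (10.4%).

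The kinases that activate AP-1 proteins and the phosphatases that limit those kinases were counted against the shares of all genes called. From resident to migratory cells 33.2% fell and 16% rose in WT, and 22.6% fell and 14.1% rose in Batf3-/- DC1. Of 14 MAP kinase genes, 6 fell from resident to migratory WT DC1 and 5 in Batf3-/- DC1, none rose, and Mapk14, which encodes p38 alpha, led both counts (-2.99 ± 0.23 and -2.46 ± 0.20). Map2k6, a kinase that activates p38, fell in both as well (-1.33 ± 0.19 and -1.54 ± 0.17). Of 9 MAP kinase phosphatases, 3 fell in WT (Dusp6, -2.40 ± 0.35, Dusp1, -1.21 ± 0.22, and Dusp7, -1.26 ± 0.24). In Batf3-/- DC1 2 fell (Dusp6, -2.20 ± 0.32, and Dusp7, -0.99 ± 0.22) and 2 rose, among them Dusp5 (1.47 ± 0.25). Between migratory Batf3-/- and WT DC1, Dusp1 (0.90 ± 0.22), Dusp5 (1.07 ± 0.28) and Dusp8 (0.97 ± 0.23) rose, where 7.13% of all genes did. Of 14 kinases 1 rose, Map3k8 (0.95 ± 0.24), a share close to that of all genes. Counted together were 9 genes, those of SRF, which drives Fos and Egr1 transcription, of its ELK and MRTF partners and of MEF2 factors. Of the 9, 4 fell and 1 rose in WT, with Elk1 at -1.57 ± 0.22 and Mef2c at -1.16 ± 0.27. Between migratory genotypes 3 of these 9 rose against the same 7.13%, Elk1 (0.89 ± 0.22), Mef2a (0.95 ± 0.25) and Mrtfb (0.92 ± 0.25).

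Other zipper families that can share partners with the members were mixed. From resident to migratory cells, 33.2% of all genes fell and 16% rose in WT, and 22.6% and 14.1% in Batf3-/- DC1. Between migratory genotypes 7.13% of all genes were called higher. Of 14 ATF and CREB genes, 4 fell and 3 rose from resident to migratory DC1 in either genotype, with Xbp1 (-1.69 ± 0.16 in WT, -1.06 ± 0.14 in Batf3-/-) and Atf6 (-1.94 ± 0.21 and -1.23 ± 0.19), both of the unfolded protein response, among those that fell. None was called by limma between genotypes, where 5 of 14 had an unadjusted p under 0.05 among migratory DC1 (30% of all genes), 0 among resident DC1 and 0 in spleen. Of 8 MAF and CNC genes, 1 fell and 1 rose in WT, and 2 fell and 1 rose in Batf3-/- DC1. Mafk fell in both genotypes (-1.11 ± 0.23 and -1.18 ± 0.21). Bach1, a heme-regulated partner of small MAF proteins, was higher in migratory Batf3-/- than in migratory WT DC1 (0.81 ± 0.23). Of 8 CEBP and PAR genes, Cebpa fell (-1.15 ± 0.27 and -1.13 ± 0.24) and Dbp and Tef rose in both genotypes. Of the 4 BATF and JDP2 genes, Batf3 (0.81 ± 0.20) and Batf2 (0.46 ± 0.16) rose from resident to migratory WT DC1, and only Batf3 was called in any comparison of genotypes.

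Genes that textbooks list as AP-1 targets went both ways. Of 11 tested in SDLN, 4 fell and 3 rose from resident to migratory WT DC1 (33.2% and 16% of all genes), with the same median as all genes (-0.16). Il1b (-2.67 ± 0.22), Ccnd1 (-2.07 ± 0.30) and Ccl2 (-1.64 ± 0.28) were among those that fell. In Batf3-/- DC1 5 fell and 4 rose (22.6% and 14.1% of all genes), the cytokine gene Il6 (1.94 ± 0.25) among those that rose. Between migratory Batf3-/- and WT DC1, Tnf (1.40 ± 0.35) and Vim (0.56 ± 0.09) rose, where 7.13% of all genes did. Among resident DC1, Plaur, the urokinase receptor gene, rose (2.62 ± 0.51) and Ccl2 fell (-1.23 ± 0.25), where 1.84% of all genes were called. In spleen none of 12 was called by limma between Batf3-/- and WT Irf8VENUS+ DC1, where 6 had an unadjusted p under 0.05 (10.4% of all genes), while against WT Irf8VENUS- DC1 Vim rose (1.09 ± 0.17) and Cd44 fell (-1.77 ± 0.22).

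Genes known to be induced by tissue dissociation moved with some of the members' differences. In SDLN, Egr1 read 8.58 to 8.83 in resident WT and 7.18 and 7.26 in migratory WT DC1, and 8.43 to 8.63 and 6.75 to 7.34 in Batf3-/- DC1, the same direction as Fos. Ier2 read 6.01 and 6.39 in migratory WT and 6.84 to 7.33 in migratory Batf3-/- DC1, and Dusp1 11.52 and 11.87 against 12.08 to 12.99, the same direction as Atf3 there. Zfp36 did not share the lower values of migratory cells, with means of 10.12 in resident and 9.99 in migratory WT and of 10.51 and 10.68 in Batf3-/- DC1. Between the migratory genotypes Zfp36 lay higher in Batf3-/- (10.51 to 10.80) than in WT DC1 (9.78 and 10.20), the direction of Atf3, and was not called. Nr4a1 had means of 11.30 in resident and 8.16 in migratory WT and of 11.27 and 8.57 in Batf3-/- DC1. Egr1 differed by -0.17 ± 0.19 between the migratory genotypes (limma, adjusted p = 0.591). Of 9 heat shock genes, 7 fell from resident to migratory DC1 in WT (33.2% of all genes) and 7 in Batf3-/- (22.6%). Limma called none between genotypes, where 3 of 9 among migratory (30% of all genes) and 1 of 9 among resident DC1 (9.61%) had an unadjusted p under 0.05. The log2 of the summed intensity of 10 heat shock genes was 13.32 to 13.43 in resident and 12.85 to 13.10 in migratory DC1. Hspa1a lay higher in resident Batf3-/- (9.36 to 9.71) than in resident WT DC1 (8.85 to 9.04), without overlap, and did not pass the test (0.62 ± 0.22, limma, adjusted p = 0.291).

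In spleen, replicate 1 of WT Irf8VENUS+ DC1, low in Fos, Fosb and Atf3, was also low in some other immediate early genes but not in Egr1, which read 9.06 there and 8.86 and 9.20 on the group's other arrays. It read 7.87 for Dusp1, where its group's other arrays read 9.60 and 8.97, and 8.89 for Nr4a1 against 10.47 and 11.28. Zfp36 read 10.92 against 11.92 and 11.97. The heat shock gene Hspa1a was instead high on that array, at 11.75 against 7.37 and 8.94. The log2 of the summed intensity of 23 immediate early genes was 12.77 to 14.15 in WT Irf8VENUS+, 13.89 and 14.21 in WT Irf8VENUS- and 14.01 to 14.03 in Batf3-/- DC1. As given above, the Atf3 difference in spleen was 1.40 without that array. The part of dissociation in the levels of the members was not tested.

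**Figure D4:**
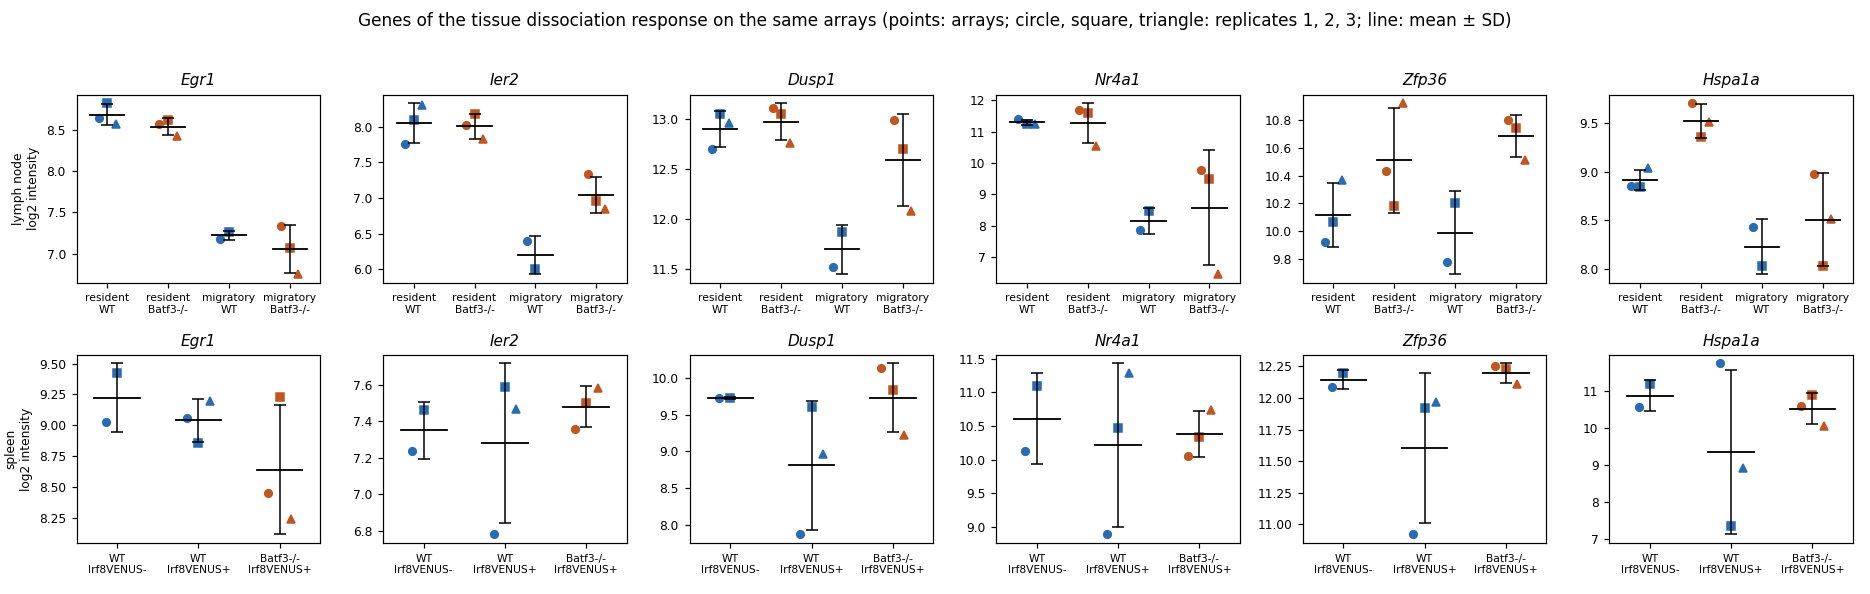
Log2 intensity of 6 genes of the tissue dissociation response on the lymph node arrays (top row) and the spleen arrays (bottom row), 1 panel per gene and table with its own vertical axis. Points are arrays (circle, square and triangle for replicates 1, 2 and 3), and lines show the mean with its SD. Egr1 is lower in both migratory groups, Ier2 is lower in migratory WT (6.01 and 6.39) than in migratory Batf3-/- DC1 (6.84 to 7.33), and replicate 1 of spleen WT Irf8VENUS+ is lowest for Dusp1, Ier2, Nr4a1 and Zfp36 and highest for Hspa1a.

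Markers of other cells differed between migratory and resident DC1. Of 5 B cell markers tested, 4 were higher in migratory than in resident WT DC1 (16% of all genes) and none in Batf3-/- DC1 (14.1%). Of the 5, 1 was lower in migratory Batf3-/- than in migratory WT DC1 (2.28% of all genes). The log2 of their summed intensity was 8.58 and 8.77 in migratory WT, 7.47 to 8.41 in migratory Batf3-/- and 7.02 to 7.62 in resident DC1. T cell markers summed to 8.81 and 9.75 in migratory WT, 8.18 to 9.32 in migratory Batf3-/- and 8.12 to 9.39 in resident DC1. Of 5 tested, 2 were higher in migratory than in resident WT DC1 (16% of all genes). Of the stromal and endothelial markers, 6 summed to 9.20 and 9.75 in migratory WT, 8.16 to 8.99 in migratory Batf3-/- and 7.78 to 8.77 in resident DC1. Other markers were lower in migratory DC1. Of 5 cDC2 markers, 3 were called lower than in resident DC1 in WT (33.2% of all genes), with a median of -1.66. In Batf3-/- DC1 3 were lower (22.6%) and 1 higher (14.1%), with a median of -2.53. The summed level of the cDC2 markers was 8.10 and 8.11 in migratory WT, 7.96 to 8.87 in migratory Batf3-/-, 8.32 to 10.39 in resident WT and 9.37 to 9.69 in resident Batf3-/- DC1. Between resident genotypes, 2 of the 5, Clec10a and Mgl2, were called higher in Batf3-/- DC1, where 0.847% of all genes were. The other 3 had estimates in the opposite direction and were not called, and the median of the 5 was -0.36. The macrophage markers summed to 7.46 and 7.79 in migratory WT, 7.76 to 7.83 in migratory Batf3-/-, 9.01 to 9.38 in resident WT and 9.16 to 9.33 in resident Batf3-/- DC1. Of 4 tested, 1 was lower in migratory than in resident WT DC1 (Ccr2, where 33.2% of all genes were). In Batf3-/- DC1 1 was lower (22.6%) and 2 were higher (14.1%) in migratory than in resident cells. Array values have no true 0, so the absence of a marker cannot be read from them. The part of all these cells in the lower Fos, Fosb, Jun and Atf3 of migratory WT DC1 was not tested. In spleen the B cell markers summed to 9.75 to 10.21 in all groups.

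Cldn1, a tight junction gene taken as a Langerhans cell marker, differed between genotypes in the direction of Atf3, which was called only among migratory DC1. Cldn1 was higher in Batf3-/- than in WT DC1 among migratory (1.30 ± 0.22, limma, adjusted p = 0.00833) and resident DC1 (1.35 ± 0.19). In spleen it was higher than in WT Irf8VENUS+ DC1 (2.73 ± 0.39). Against WT Irf8VENUS- DC1, 1 of 2 Langerhans markers tested was called higher and 1 lower, and Atf3 differed by 0.28 ± 0.41. The 3 Langerhans markers summed to 8.88 to 9.54 in migratory Batf3-/- against 8.09 and 8.15 in migratory WT DC1. Among resident DC1 they summed to 10.67 to 11.02 in Batf3-/- against 9.37 to 9.66 in WT. In spleen the sums were 9.87 to 10.57 in Batf3-/- against 7.33 to 8.44 in WT Irf8VENUS+ DC1. The defining markers Epcam (3.58 to 4.43 in SDLN, 3.78 to 4.05 in spleen) and, in SDLN, Cd207 did not pass the filter on dim genes. In spleen Cd207 was tested and went against Cldn1, at 5.10 to 5.13 in Batf3-/-, 5.55 to 6.32 in WT Irf8VENUS+ and 7.42 and 7.55 in WT Irf8VENUS- DC1. It was lower in Batf3-/- than in WT Irf8VENUS- DC1 (-2.46 ± 0.21, limma, adjusted p = 0.00374), and its difference from WT Irf8VENUS+ did not pass the test (-0.86 ± 0.18, adjusted p = 0.101). The macrophage markers C1qa (0.92 ± 0.20) and C1qb (0.61 ± 0.17), 2 of 4 tested, were also higher in migratory Batf3-/- than in migratory WT DC1, where 7.13% of all genes were. In these groups 8 such markers summed to 7.76 to 7.83 against 7.46 and 7.79. The other 2 tested, Ccr2 (-0.35 ± 0.27) and Csf1r (-0.19 ± 0.38), had estimates in the opposite direction and were not called. The part of Langerhans cells and macrophages in the Atf3 difference was not tested.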

How the data were processed

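Levels were measured on 8 spleen and 11 SDLN arrays of different types, each table analysed alone. RMA, which corrects background, normalizes quantiles and summarises probes, made the deposited values, per the submitters' processing notes. No source used here gives its version. The deposited spleen values were linear intensity (1.85 to 13035.5), and log2 was taken. The deposited SDLN values were already log2 (1.35 to 13.96), and their spread differed between arrays. Neither table gives background per probe, and precision is limited by the few arrays per group.

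Probe sets with 1 symbol in the platform annotation were used (23521 of 41345 in spleen, 21789 of 35556 in SDLN), with symbols updated through RefSeq for 23328 and 21698. Probe sets with several symbols (1814 and 1621) and unnamed ones (16010 and 12146) were left out. A gene took its probe set of highest mean and entered the tests if 2 or more arrays were at or over the table's median (log2 5.04 and 4.82), which left 12875 and 11931 genes. The linear models were those of limma 3.58.1 (R 4.3.3), with moderated variances and a mean-variance trend, all arrays of a table in 1 fit, with the sort gate as a term in spleen, and Benjamini-Hochberg adjustment over all genes tested. A called gene has an adjusted p under 0.05. The fit was tested on simulated data. Alternatives are in the closing section.

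The named genes were the members, Batf3, up to 3 called genes of each list with the smallest adjusted p, the 3 genes most like each member by Pearson r (not all printed), and Egr1, Ier2, Dusp1, Nr4a1, Zfp36, Hspa1a and Hspa1b. The markers of other cells that are named were picked after their values were seen. Members and lists were chosen with earlier results of these data known. The main fits took no SDLN arrays as paired, and the replicate block was an alternative. In Batf3-/- migratory against resident DC1, deviations of same-numbered arrays from the group means correlated at 0.416, 0.210 and 0.479. Elsewhere the correlations were not all over 0.1.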

Additional observations from a re-analysis of the deposited data

How the results depend on the processing

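The alternatives were other filters, the mean of all probe sets of a gene, repeated quantile normalization, median centring, array weights, no trend, only the groups compared, the SD of each array as a term, a replicate block, the sort gate left out or held constant, log2 with an offset of 16 in spleen, and each array left out. A sign change counted only where a value was called or exceeded its SE. In spleen Batf3-/- against WT Irf8VENUS+ DC1, called members went from 0 to 1 (Atf3) with the stricter filter, array weights, the SD term and the replicate block in place of the sort gate, and from 0 to 1 over the arrays left out. Over the arrays left out, Fosb ranged from -0.04 to 0.66 there and Fos from -0.85 to 0.09 between WT Irf8VENUS+ and WT Irf8VENUS- DC1, with the sign turned in both without WT Irf8VENUS+ replicate 1.

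Between migratory Batf3-/- and WT DC1, called members went from 1 to 0 with only the groups compared and with the SD term, to 2 with array weights (Atf3 and Fosb) and to 3 with the replicate block, and ranged from 0 to 4 over the arrays left out (0 without replicate 1 of either group, 2 without WT replicate 2, 4 without Batf3-/- replicate 3). From resident to migratory WT DC1, 4 became 0 with the SD term and ranged from 3 to 5 over the arrays left out. Median centring added Jund and Maff to those 4, and only the groups compared added Maff. In Batf3-/- DC1, 2 became 4 with array weights (Fos, Fosb, Fosl2 and Jun) and with the replicate block, and ranged from 2 to 5. There median centring added Jund, and only the groups compared added Jun. The interaction went from 0 to 1 (Fosb). The block changed no call of a member in the other comparisons of genotypes in SDLN, and in WT migratory against resident it added Fosl2 and Maff to the 4.

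With the SD term, signs turned for Fosb (-0.57), Junb (-0.36) and Maff (-0.31) between migratory genotypes. They also turned for Fosb (0.16), Fosl2 (0.97) and Maff (0.72) from resident to migratory WT DC1, for Maff (0.02) in Batf3-/- DC1, and for Fosb (-0.58) and Junb (-0.33) in the interaction. That term rises and falls with the groups, since the migratory WT arrays had the smallest SD. The cause of the other changes was not tested. Atf3 kept its sign in all 15 alternatives between migratory genotypes (1.07 to 1.48, called in 11) and all 19 in spleen (1.40 to 2.14, called in 5).

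Counts over all genes moved as well: from 95 to between 24 and 262 in spleen Batf3-/- against WT Irf8VENUS+, from 3 to between 0 and 18 between the spleen WT groups, and from 72 to between 6 and 164 in Batf3-/- against WT Irf8VENUS-. They moved from 220 to between 95 and 981 among resident and from 1123 to between 7 and 3570 among migratory DC1. From resident to migratory cells they moved from 5870 to between 1263 and 8873 in WT and from 4371 to between 3287 and 5350 in Batf3-/-. For the interaction they moved from 148 to between 17 and 1713. Each arm had 2 or 3 arrays, and their number limits the precision.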
